A study of Mus musculus with 6 samples.

Results

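The transcripts of the translation initiation and elongation factors were followed during exposure to cycloheximide in mouse embryonic stem cells of the E14 line, which is pluripotent and of 129/Ola background. The factors were every gene whose symbol starts with Eif and a digit from 1 to 6 or with Eef and 1 or 2, plus Tpt1 and Pabpc1. This rule found 64 of the 17485 genes in the files, of which 54 carried an initiation and 8 an elongation symbol. All cells grew in serum with leukaemia inhibitory factor, and treatment began 24 h after seeding. Cycloheximide, which stalls elongating ribosomes, was present for 3 h or 6 h at 250 µg/mL with 0.007% ethanol. Control cells had ethanol alone for 9 h, a longer exposure than either treated group's. If every exposure began at that time, total time in culture also differed between the groups and cannot be told apart from treatment. Each group had 2 libraries, 6 in all, made from polyadenylated RNA. No source says that the 2 libraries of a group came from separate cultures, so p-values measure only the spread between these libraries.

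Initiation factors bring the small ribosomal subunit, the initiator tRNA and the capped mRNA together. The eIF4F complex binds the cap and unwinds the leader, eIF3 holds the assembly together, eIF2 carries the initiator tRNA, and eIF1 and eIF1A guide start codon choice. Elongation factors then deliver aminoacyl-tRNAs (eEF1A, recharged by the eEF1B subunits) and move the ribosome along the mRNA (eEF2). Many elongation factor mRNAs, with those of the ribosomal proteins and a few initiation factors, begin with a cytosine followed by pyrimidines. Such 5′ terminal oligopyrimidine (TOP) mRNAs are translated or held back together under control of mTORC1 and the binding protein Larp1.

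Total counts ranged from 9385447 to 27351079 per library, and both 6 h libraries were deeper than the other 4. A count of 3 corresponded to 0.110 to 0.320 counts per 1e+06 total counts of the library before scaling. CPM elsewhere are counts per 1e+06 counts of the scaled library. The summed level of 8 pluripotency genes was 6546 to 6716 CPM in controls, 7538 to 7771 CPM at 3 h and 5235 to 5444 CPM at 6 h. At 3 h 3 of these 8 had a positive and 5 a negative log2 fold change (median -0.06), so the higher sum does not describe each gene. At 6 h 0 of the 8 were positive and 8 negative, with a median of -0.35. Of these, 3 fell by edgeR at an adjusted p under 0.05, where 14.3% of all tested genes fell. Fibroblast or feeder markers (4 genes in the files, 1 of them at 0 in 5 libraries) summed to 3.56 to 9.41 CPM over all libraries. Primitive endoderm markers (5 genes, all with counts in every library) summed to 5.41 to 7.58 CPM in controls, 14.0 to 18.8 CPM at 3 h and 12.2 to 14.2 CPM at 6 h. At 3 h 4 of these 5 had a positive log2 fold change, and Dab2 had a negative value of -1.10. Mitochondrially encoded transcripts took 24.7% and 24.9% of the control libraries, 19.6% and 18.9% at 3 h, and 17.4% and 16.6% at 6 h. The part of these shifts in the results below was not tested, except that the factors were also compared with mitochondrial counts left out.

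Relative to other transcripts, 23 translation factors fell modestly after 6 h of cycloheximide, among them the eEF1 subunits, Tpt1, Pabpc1, Eif5a and 6 subunits of eIF3. The helicase gene Eif4a2 rose 1.94-fold at 3 h and 2.25-fold at 6 h. Of the 64 factors, 62 had enough counts to be tested, and 2 did not: Eif3j2 (0 to 6 counts per library) and Eif4e1b (0 or 1 count). At 3 h, 1 factor rose (Eif4a2) and 1 fell (Eif1ax) by edgeR's quasi-likelihood test at an adjusted p under 0.05, where 3.6% of the 12755 tested genes rose and 1.3% fell. At 6 h, 4 factors rose (Eif4a2, Eif1b, Eif2b2 and Eif4g3) and 23 fell, where 14.8% of all tested genes rose and 14.3% fell. Between 6 h and 3 h no factor passed (0.455% of all genes rose and 1.18% fell), and 2 were higher and 7 lower at an unadjusted p under 0.05. There DESeq2 called 1 higher and 2 lower, and limma-voom called 1 lower. At 3 h the unadjusted counts were 1 higher and 20 lower. The median log2 fold change of the 62 factors was -0.21 at 3 h and -0.34 at 6 h against control, beside 0.02 and 0.04 over all tested genes. The 2 comparisons share the control libraries, so their values are given side by side and are not independent.

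**Figure D1:**
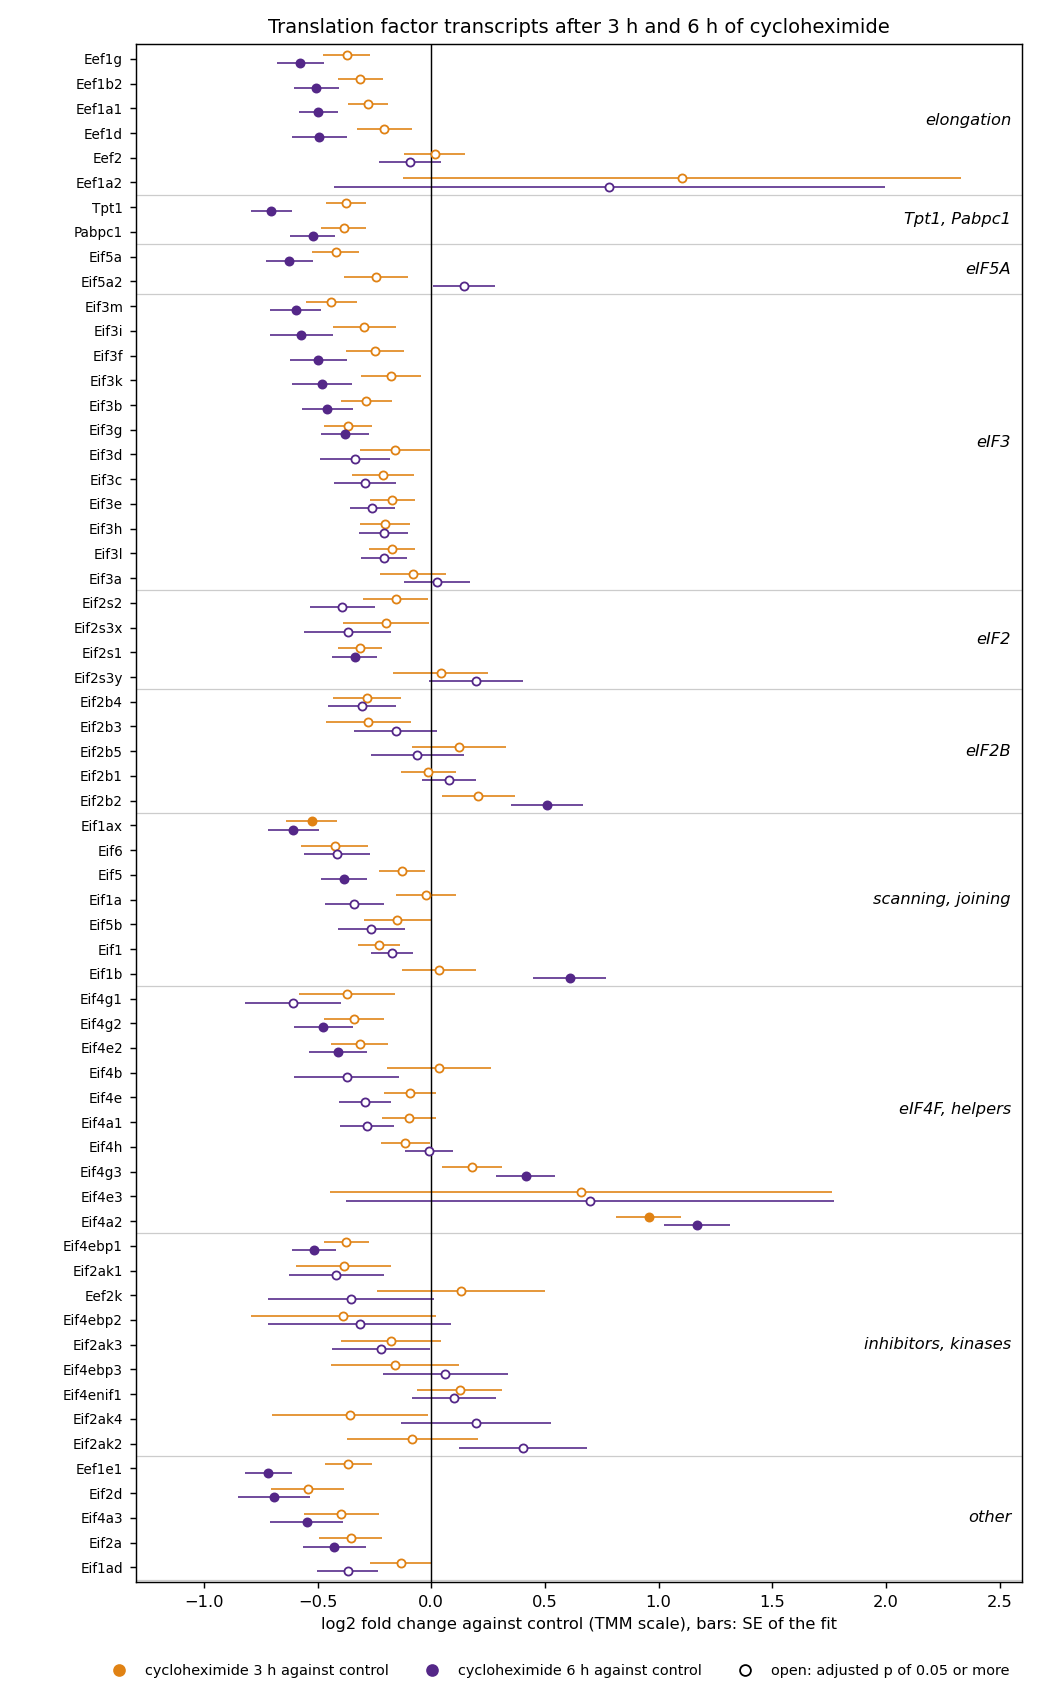
Log2 fold change against control (horizontal axis) of each of the 62 tested translation factors, in rows ordered by role, at 3 h (orange) and 6 h (purple) of cycloheximide; bars are the standard error of the fit over 2 libraries per group and open symbols did not pass an adjusted p of 0.05. Most points lie left of 0, with Eif4a2 farthest right among called factors at 0.96 and 1.17.

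The separation of libraries gave a like picture. At 3 h, 34 of the 62 factors had both treated libraries below both controls, against 24.8% of all tested genes, and 3 had both above, against 28.4%. By 6 h these counts were 39, against 31.2% of all genes, and 6, against 35.7%. Between 6 h and 3 h, 27 factors were lower and 8 higher in both libraries, against 26.9% and 27.2% of all genes.

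How far these differences are falls depends on the scale. CPM here were scaled by TMM, which sets the bulk of genes to no change. With library size alone, the median of all genes was 0.25 at 3 h and 0.40 at 6 h, and that of the factors was 0.02 at both times. On that scale 7 factors were called higher at 6 h (Eif4a2, Eif1b, Eif2b2, Eif4g3, Eif2b1, Eif4h and Eif5a2) and 2 lower (Tpt1 and Eef1e1). At 6 h, 88.2% of all calls on that scale were higher, against 50.8% on the TMM scale; at 3 h the shares were 95.8% and 73.4%, and for 6 h against 3 h 56.5% and 27.8%. With mitochondrial counts left out of the library size, 4 factors were called higher and 10 lower at 6 h, the all-gene median being 0.26. The factors lay below the median of all genes on each of these scales, and the falls given below are relative to it.

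As a share of all counts, the initiation factors held between 1.59% and 1.66% of every library. Those with elongation symbols took 0.461% and 0.470% of the control libraries, 0.449% of each 3 h library, and 0.414% and 0.441% of the 6 h libraries. The elongation share lay lower in both 6 h libraries than in both controls, and the shares of all initiation symbols overlapped. Within these, 40 genes of scanning and joining, eIF2, eIF2B, eIF3 and eIF4F took more of every treated library than of either control. They held 1.07% and 1.09% of the control libraries, 1.12% of each 3 h library, and 1.15% and 1.13% at 6 h. The 2 eIF5A genes took less, at 0.449% and 0.461% of the control libraries and 0.397% and 0.362% at 6 h. Among the 40 genes, Eif4a2 had 3362 of their 165071 and 1553 of their 102177 counts in controls. At 6 h it had 15389 of 313957 and 12510 of 260593. On the TMM scale 30 of the 38 tested among the 40 had a negative log2 fold change at 6 h and 8 a positive one. Mitochondrial transcripts took less of the treated libraries, and their part in these shares was not tested.

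**Figure D2:**
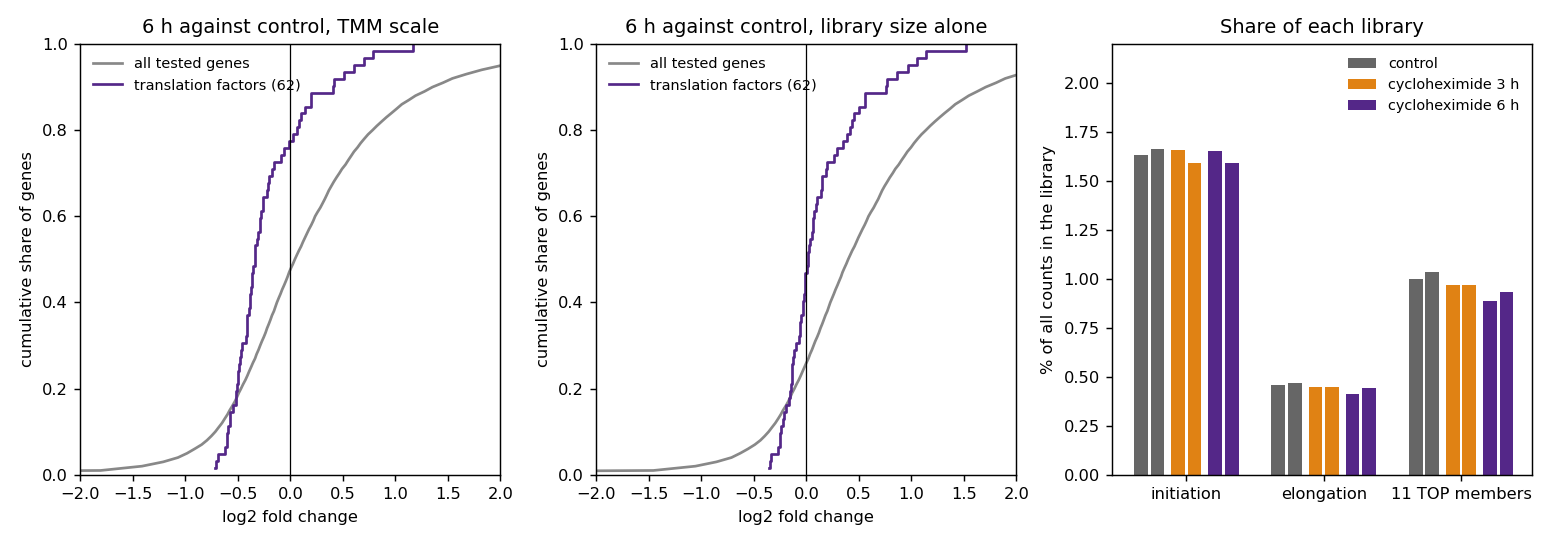
Left and centre, cumulative share of genes (vertical) by log2 fold change at 6 h against control for the 62 translation factors (purple) and all tested genes (grey), on the TMM scale and with library size alone. Right, percent of all counts taken by initiation factors, elongation factors and the 11 TOP members in each library, 2 bars per group. The factor curve lies left of the all-gene curve over most of its range in both plots, with medians of -0.34 and 0.02.

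Elongation factors had the lower medians. For the 8 with elongation symbols the median was -0.24 at 3 h and -0.49 at 6 h (log2 fold change), beside -0.19 and -0.31 for the 52 tested initiation factors. At 6 h 5 of the 8 fell and 0 rose, while 16 of the 52 fell and 4 rose. Per library, the median deviation from the control mean was -0.26 and -0.27 at 3 h and -0.46 and -0.45 at 6 h for elongation. For initiation it was -0.20 in both 3 h libraries, and -0.25 and -0.33 at 6 h. The difference between these unequal groups of genes was not tested.

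Of the 5 elongation falls at 6 h, 4 were of eEF1 complex genes. Eef1a1, the GTPase that delivers aminoacyl-tRNA, was at 1478 and 1518 CPM in controls, 1219 and 1250 CPM at 3 h, and 1048 and 1076 CPM at 6 h. The 3 groups did not overlap, and at 6 h it fell by 0.50 ± 0.09 (SE) on the log2 scale (edgeR adjusted p = 0.00516). Eef1b2, a subunit of its exchange factor, was at 2199 and 2437 CPM in controls, 1875 and 1859 CPM at 3 h, and 1540 and 1726 CPM at 6 h. Its log2 fold change at 6 h was -0.51 ± 0.10 (adjusted p = 0.00764). Eef1g, the structural subunit of that exchange factor, went from 631.9 and 594.0 CPM in controls through 481.7 and 466.0 CPM to 434.3 and 388.5 CPM at 6 h, where it fell by 0.58 on the log2 scale (adjusted p = 0.00537). Eef1d, another exchange subunit, was at 119.5 and 114.1 CPM in controls and 86.8 and 79.4 CPM at 6 h (-0.49, adjusted p = 0.0179).

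Eef2, the translocase, did not pass at any time. Its CPM were 522.3 and 410.7 in controls, 507.8 and 435.2 at 3 h, and 441.8 and 433.6 at 6 h. The groups overlapped, and the log2 fold change at 6 h was -0.09 ± 0.14 (adjusted p = 0.646). The muscle and neuron isoform Eef1a2 was near the detection limit in every library (0.129 to 0.867 CPM). Eef2k, the kinase that inhibits eEF2, was low and scattered, at 12.4 and 6.23 CPM in controls and 6.60 and 8.32 CPM at 6 h. Eef1e1 carries an elongation symbol but is known as an auxiliary subunit of the multi-tRNA-synthetase complex. It was at 304.8 and 309.1 CPM in controls, 243.7 and 232.9 CPM at 3 h and 178.9 and 194.6 CPM at 6 h, the lowest log2 fold change of any factor (-0.72 ± 0.10, adjusted p = 0.00251).

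Tpt1 and Pabpc1 are TOP mRNAs outside the factor symbols. Tpt1, a growth-related protein and a classical TOP mRNA, was at 2557 and 2793 CPM in controls, 2068 and 2059 CPM at 3 h, and 1621 and 1663 CPM at 6 h. All 3 groups were separate, with log2 fold changes of -0.37 at 3 h (adjusted p = 0.0510) and -0.70 ± 0.09 at 6 h (adjusted p = 0.00142). Pabpc1, the cytoplasmic poly(A)-binding protein, was at 2863 and 2596 CPM in controls, 2154 and 2025 CPM at 3 h, and 1810 and 1992 CPM at 6 h (-0.52, adjusted p = 0.00645). Both were thus already lower than controls in each 3 h library.

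**Figure D3:**
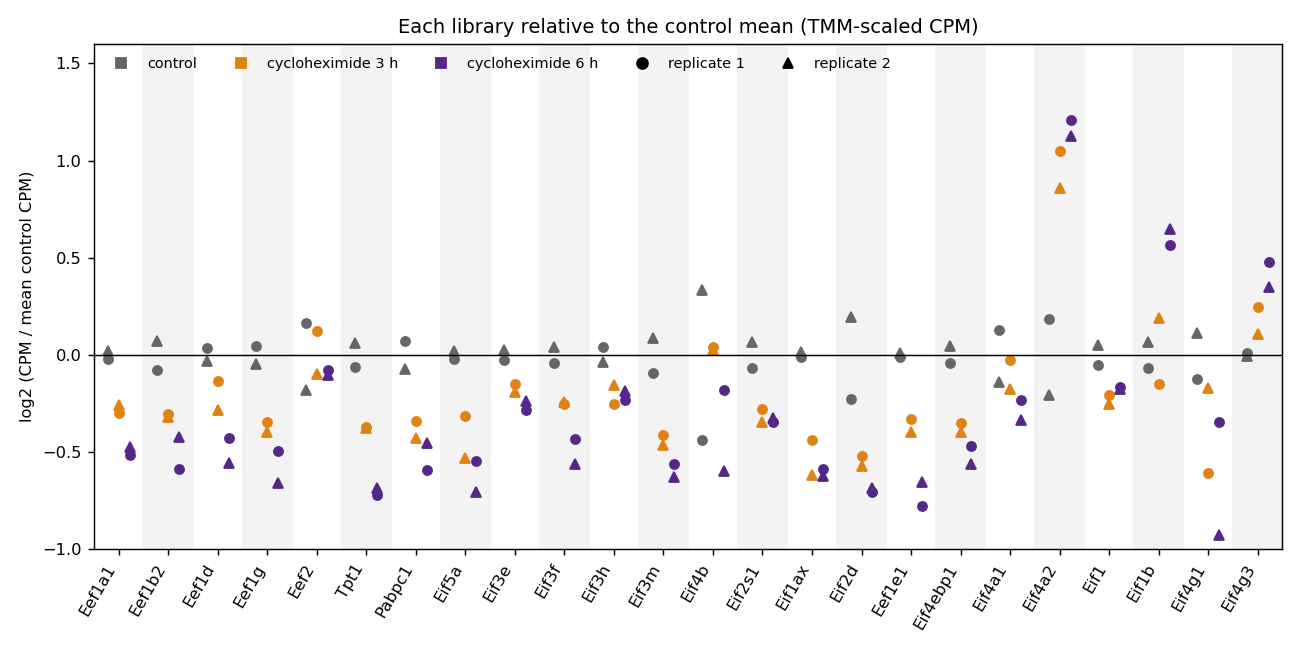
Log2 of CPM over the mean control CPM (vertical) for 24 translation factors, each library shown as 1 point (circle replicate 1, triangle replicate 2) in controls (grey), 3 h (orange) and 6 h (purple). For Tpt1 and Eef1a1 the 3 groups separate in order of time, Eef2 overlaps, the 2 Eif4b controls lie far apart, and Eif4a2 is above 0 in all treated libraries.

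In all, 11 members were taken as known TOP mRNAs: Eef1a1, Eef1b2, Eef1d, Eef1g, Eef2, Eif3e, Eif3f, Eif3h, Eif4b, Tpt1 and Pabpc1. At 6 h 7 of them fell and 0 rose, with a median of -0.50, beside 16 lower and 4 higher of the 51 other tested factors with a median of -0.32. At 3 h the medians were -0.25 and -0.18, and 0 TOP members passed by edgeR (5 lower at an unadjusted p under 0.05, 5 by DESeq2 and 2 by limma-voom). The ribosomal proteins, the main class of TOP mRNAs, had 72 of 84 lower and 0 higher at 6 h (median -0.56), and 8 lower at 3 h (median -0.32). Of 5 further TOP genes 4 fell at 6 h, with Vim at -1.29, while Hnrnpa1 rose by 2.19 from only 5 or 6 counts in controls.

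Of the 4 TOP initiation factors 1 fell at 6 h. Eif3f, an eIF3 subunit, was at 65.4 and 69.0 CPM in controls and 49.7 and 45.5 CPM at 6 h (-0.50, adjusted p = 0.0208). Eif3e (-0.26, adjusted p = 0.0798) and Eif3h (-0.21, adjusted p = 0.182) had both 6 h libraries below both controls but did not pass. Eif4b, which stimulates the eIF4A helicase, had 2 discordant controls at 524.8 and 896.6 CPM, with 627.4 and 469.7 CPM at 6 h (adjusted p = 0.256).

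Sequences at annotated start sites are shown because a TOP mRNA is defined by its first bases. Of the 62 tested factors, 49 were matched by symbol in the RefSeq promoter table (GRCm38.p6). A run was scored where a C with at least 4 further pyrimidines (C or T), on the transcribed strand, began within 20 bases of an annotated start. Each window of 30 bases below is written 5′ to 3′ with that run in capitals. The first 3 hold a run, the last 3 none, and both Eif4a paralogs are among the latter. Capitals mark a match to this rule and do not by themselves mark a TOP start. In Eef1a1 the run has its first base at -5 from the annotated start, so the start base is not its first C.
Eef1a1: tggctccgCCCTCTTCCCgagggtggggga
Eif3f: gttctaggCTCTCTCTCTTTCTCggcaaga
Eif2s3x: agcattttCCTTTTCTCTCCgagcaagatg
Tpt1: cgctgacgacagttccgggggagccgcgga
Eif4a1: gtaacgtcacgtcgagttgcagagcgccgg
Eif4a2: gaaaccccgtaggagcagggcggccgagga
These lie at chr9:78481708-78481737 (minus strand), chr7:108934403-108934432 (plus), chrX:94212631-94212660 (minus), chr14:75845246-75845275 (plus), chr11:69672404-69672433 (minus) and chr16:23107458-23107487 (plus), in the order listed. Each window contains its annotated start.

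The run was found in 23 of the 49 factors (46.9%), in 54.8% of the 9472 tested genes with a table entry, and in 83.9% of 62 ribosomal protein genes. By a stricter rule, in which the annotated start base is itself a C followed by at least 4 pyrimidines, 2 factors held a run, Eif2s3x and Eif3f (4.08%), beside 3.17% of all tested genes and 22.6% of ribosomal protein genes. At 6 h the 23 factors with a run had a median of -0.37 (1 higher, 7 lower), and the 26 without had -0.31 (3 higher, 10 lower). Over all tested genes in the table the median was 0.03 both with and without a run. With a run 742 of 5193 were higher and 752 lower, and without 604 of 4279 were higher and 619 lower. Of the 11 TOP members 6 were in the table, and 4 of these (66.7%) held a run. Tpt1 had the lowest log2 fold change of the 11 TOP members and no run in its window. That window surrounds the RefSeq start at chr14:75845256, downstream of the GENCODE gene start at 75845093, so the search did not cover the GENCODE start. A match is a description of letters and not of the transcript start used in these cells.

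The eIF3 complex, the largest initiation factor, had 12 tested subunits, of which 6 fell at 6 h and 0 rose, with a median of -0.36. The 6 were Eif3m, Eif3i, Eif3f, Eif3k, Eif3b and Eif3g. Eif3m was at 193.4 and 219.0 CPM in controls, 154.7 and 149.3 CPM at 3 h, and 139.4 and 133.1 CPM at 6 h (-0.60 ± 0.11, adjusted p = 0.00666). In 11 of the 12 both 6 h libraries lay below both controls, against 31.2% of all tested genes. The exception was Eif3a, the scaffold subunit, at 344.6 and 275.3 CPM in controls and 281.0 and 350.8 CPM at 6 h.

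Among the 4 tested eIF2 genes, Eif2s1, the alpha subunit that stress kinases phosphorylate, was at 630.8 and 690.2 CPM in controls, 543.8 and 519.9 CPM at 3 h and 519.2 and 526.6 CPM at 6 h. It fell by 0.34 on the log2 scale at 6 h (adjusted p = 0.0324), and its value turned to 0.02 with library size alone. The beta and gamma subunit genes did not pass by edgeR, while DESeq2 and limma-voom called the beta subunit gene Eif2s2 lower at 6 h (-0.39, adjusted p = 0.0702 by edgeR). Of the 5 genes of eIF2B, which reloads eIF2 with GTP, Eif2b2 rose at 6 h, from 24.5 and 22.1 CPM in controls to 35.8 and 30.6 CPM (0.51, adjusted p = 0.0411), and the other 4 did not pass.

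The scanning and joining factors split by gene. Eif1ax, encoding eIF1A, was at 197.7 and 201.2 CPM in controls, 147.0 and 130.1 CPM at 3 h, and 132.6 and 129.4 CPM at 6 h. It fell at 3 h (-0.53 ± 0.11, adjusted p = 0.0376) and at 6 h (-0.61 ± 0.11, adjusted p = 0.00606). The 3 h call held in 6 of 15 settings, its adjusted p reaching 0.231. Eif1b, a paralog of the start codon selection factor Eif1, was at 28.0 and 30.8 CPM in controls, 26.5 and 33.6 CPM at 3 h, and 43.5 and 46.0 CPM at 6 h (0.61 ± 0.16, adjusted p = 0.0231). Eif1 itself was at 922.1 and 992.1 CPM in controls and 852.1 and 848.3 CPM at 6 h (adjusted p = 0.199). Eif5, the GTPase activator of eIF2, fell at 6 h (-0.38, adjusted p = 0.0229). Eif5b and Eif6, which act at subunit joining and on the free large subunit, did not pass by edgeR; Eif6 (-0.42, adjusted p = 0.0626) was called lower by DESeq2 and limma-voom.

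Within eIF4F and its helpers, 2 of the 10 tested genes rose and 2 fell at 6 h. Eif4a2 encodes a paralog of the cap-complex helicase eIF4A and lies at chr16:23107444-23114136 (plus strand, GENCODE M21 on GRCm38). It was at 249.1 and 189.8 CPM in controls, 454.4 and 398.6 CPM at 3 h, and 507.8 and 479.5 CPM at 6 h. Every treated library was above both controls, by 1.94-fold at 3 h (log2 0.96 ± 0.14, adjusted p = 0.0104) and 2.25-fold at 6 h (1.17 ± 0.14, adjusted p = 0.00126). The 6 h call held in 15 of 15 settings, and the 3 h call was lost without either 3 h library (adjusted p up to 0.0884). Eif4a1, the main helicase gene, was at 1021 and 846.0 CPM in controls, 916.8 and 826.1 CPM at 3 h, and 795.4 and 740.3 CPM at 6 h (-0.28, adjusted p = 0.108). Eif4g3, a paralog of the scaffold Eif4g1, was at 47.9 and 47.3 CPM in controls and 66.3 and 60.6 CPM at 6 h (0.42, adjusted p = 0.0437).

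The cap-binding protein gene Eif4e was at 377.8 and 409.9 CPM in controls and 330.6 and 312.4 CPM at 6 h (-0.29, adjusted p = 0.0873). Eif4g2, the scaffold without a cap-binding protein site, and Eif4e2, the cap-binding homolog, were the 2 that fell by edgeR, with log2 fold changes of -0.47 and -0.41. The scaffold gene Eif4g1 had a lower value but did not pass by edgeR (-0.61, adjusted p = 0.0609). Both its 6 h libraries lay below both controls, and DESeq2 and limma-voom called it lower. Eif4ebp1, the mTORC1 target that sequesters eIF4E, fell from 518.5 and 550.6 CPM to 386.3 and 361.6 CPM at 6 h (-0.52, adjusted p = 0.00683). It was the single call among 9 tested inhibitor and kinase genes. Eif2ak3, the endoplasmic reticulum stress kinase PERK, stayed between 9.01 and 12.5 CPM in the 6 libraries (adjusted p = 0.477 at 6 h). Eif4ebp2 had discordant controls, at 263.9 and 85.9 CPM.

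Eif5a, which relieves ribosomes stalled on difficult peptide bonds, was at 5098 and 5250 CPM in controls, 4158 and 3577 CPM at 3 h and 3544 and 3171 CPM at 6 h. It fell by 0.62 ± 0.10 on the log2 scale at 6 h (adjusted p = 0.0041). The remaining factors hold various roles. Eif2d, which can place initiator tRNA without eIF2, went from 63.4 and 84.8 CPM to 45.4 and 46.0 CPM at 6 h (-0.69, adjusted p = 0.0137). Eif4a3, the exon junction helicase, fell by 0.55 and Eif2a by 0.43 on the log2 scale at 6 h, and these calls held in 6 and 5 of 15 settings and not with the replicate block.

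Some chosen pairs of related genes moved apart within libraries. The ratio of their counts needs no scaling between libraries, and since the genes differ in length only its change can be read; these pairs were chosen after their values were seen. The Eif4a2 to Eif4a1 ratio was 0.244 and 0.224 in controls, 0.496 and 0.482 at 3 h, and 0.638 and 0.648 at 6 h. Eif1b to Eif1 went from 0.0304 and 0.0310 in controls to 0.0510 and 0.0543 at 6 h. For Eif4g3 to Eif4g1 the ratio was 0.224 and 0.188 in controls and 0.362 and 0.496 at 6 h, and for Eif5a2 to Eif5a 0.00730 and 0.00715, then 0.0117 and 0.0129. Of 8 pairs, 6 had both 6 h libraries above both controls, namely these 4, Eif1a to Eif1ax and Eif2s3y to Eif2s3x, while Eif4e2 to Eif4e and Eif4ebp2 to Eif4ebp1 overlapped. The share of other gene pairs that separate in this way was not computed, so the count has no background. The 35.7% of single tested genes higher in both 6 h libraries than in both controls is not a background for ratios of chosen pairs. With 2 libraries against 2 no exact test of a ratio can reach 0.05, so none was made.

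**Figure D4:**
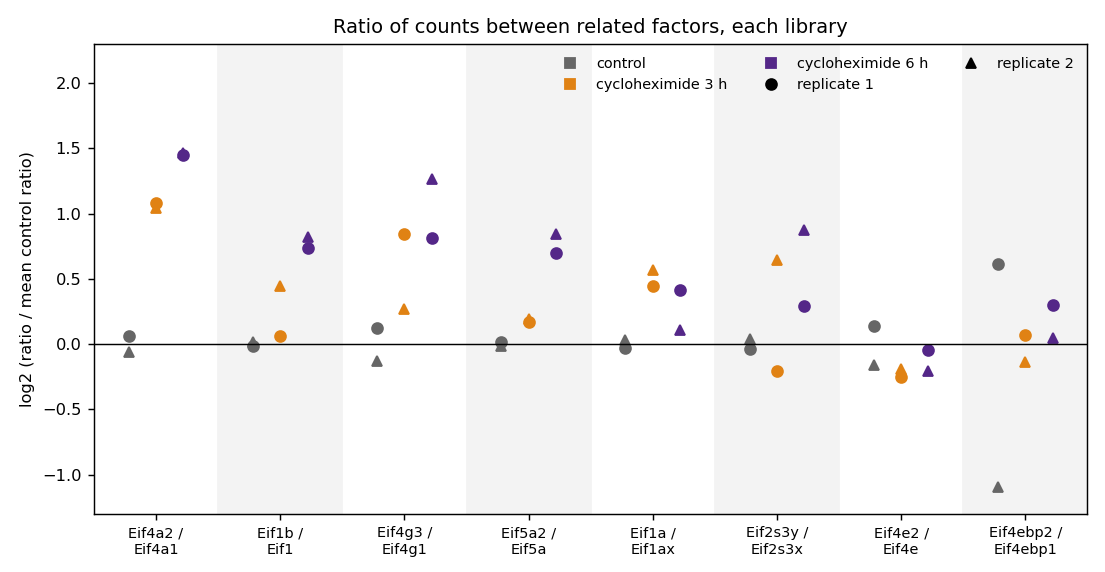
Log2 of the count ratio between 2 related factors over its mean in controls (vertical), for 8 pairs (horizontal), each library 1 point in controls (grey), 3 h (orange) and 6 h (purple). For Eif4a2 to Eif4a1 the replicates nearly coincide at each time and the groups separate; for Eif4ebp2 to Eif4ebp1 the 2 controls are the farthest apart.

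GENCODE places small nucleolar RNA genes inside 10 of the factors, of which 1 rose and 4 fell at 6 h, beside 3 and 19 of the 52 others. Of all tested genes 14.8% rose and 14.3% fell at 6 h. Only Snora81, Snora41 and Snora31 among these RNAs were tested genes, and others, such as Snord2 inside Eif4a2, were not. The libraries were made from polyadenylated RNA, and which form of these RNAs the reads came from was not tested. Snora81, inside Eif4a2, had 111 and 54 counts in controls, 24 and 8 at 3 h and 11 and 27 at 6 h. It fell by 3.42 on the log2 scale at 6 h (adjusted p = 0.00666) while its host rose. Snora41, inside Eef1b2, fell by 3.06 (adjusted p = 0.0039), and its host fell too. Snora31, inside Tpt1, had 53 and 28 counts in controls and 38 and 44 at 6 h and did not pass (-1.32, adjusted p = 0.0526). Transcripts that cycloheximide can stabilise include targets of nonsense-mediated decay, which needs translation. The 11 tested factors with an annotated decay-prone transcript had a median of -0.42 at 6 h (1 higher, 5 lower), beside -0.34 for the 51 others (3 higher, 18 lower). Over all tested genes, 484 of 3279 with such a transcript were higher and 415 lower (median 0.05). Of 8731 without, 1246 were higher and 1323 lower (median 0.03). Eif4a2 has 3 such transcripts among its 25. The counts do not separate transcripts, and any part of these 3 in its rise was not tested.

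The other genes of the pathway are counted at 6 h beside the 14.8% of all tested genes that rose and the 14.3% that fell. Of 8 termination, recycling and rescue factors 1 rose (Gspt2, 0.64) and 2 fell, Etf1 among them at -0.72. Of 8 initiation helpers 0 passed by edgeR, DESeq2 or limma-voom, and 0 had an unadjusted edgeR p under 0.05. Among 13 poly(A) tail and TOP regulators 2 fell, with Mknk2, the kinase of eIF4E, at -1.79 and also lower at 6 h than at 3 h (-1.42, adjusted p = 0.0218). Of 10 mitochondrial translation factors 2 rose, Guf1 the most at 1.29, and 1, Tsfm, fell by 0.60 on the log2 scale. Of 4 genes of eIF2 phosphatase and eIF5A modification 1 fell, Ppp1r15b, a targeting subunit of the phosphatase (-0.53).

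The counts of calls rest in part on single libraries. Without the 6 h replicate 2 library the 6 h calls went from 4 higher and 23 lower to 1 and 6, and without the 6 h replicate 1 library to 1 and 13. How reads from near-identical copies were counted is not given in the sources used here, so the levels of genes with processed copies, such as Eef1a1, Tpt1 and Eif5a, are uncertain. The calls of Eif2b2 and Eif4g3 at 6 h each held in 7 of 15 settings, and that of Eif1b in 12. Among the falls, Eif2s1, Eif3g and Eif4e2 were also called in 7 of 15.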

How the data were processed

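The authors deposited 1 table of whole-number read counts per gene for each of 6 libraries; mm10 is named in the submitters' processing notes, and the aligner, counter and strand setting are not given in the sources used here. The design text mentions single-cell sequencing, while the series title says bulk and each file holds 1 column of counts. Genes passing edgeR's filterByExpr (minimum count 10) were fitted over all 6 libraries with group means, TMM scaling and the quasi-likelihood test (edgeR 4.0.16, R 4.3.3), with Benjamini-Hochberg adjustment over 12755 genes and a threshold of 0.05, to which "passed" refers unless another tool is named. SE is the log2 fold change over the root of F. The fit was tested on simulated counts. Members and lists were chosen with earlier results of these data known. Named by rule were 11 TOP members, 7 fixed genes and, per comparison, up to 5 called factors with the largest rise and fall and separate libraries; other genes named were chosen after their values were seen. Alternatives were other scalings and filters, DESeq2 1.42.0, limma-voom (3.58.1), a replicate block and leaving out each library. Library size without mitochondrial counts was added after seeing the data. The 2 libraries of each group differed by more than sampling noise (chi-square per degree of freedom 18.7 to 27.7). Depth of 9385447 to 27351079 counts limits low genes. 1 start-site sequence is not reported here.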

Additional observations from a re-analysis of the deposited data

Results flagged for a closer look

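Eif5a2, a paralog of Eif5a, had values on opposite sides of control at the 2 times on the TMM scale. Its CPM were 37.2 and 37.5 in controls, 33.7 and 29.5 at 3 h, and 41.5 and 41.1 at 6 h, so both 3 h libraries lay below and both 6 h libraries above both controls. Neither change against control passed by edgeR (-0.24, adjusted p = 0.322 at 3 h; 0.14, adjusted p = 0.469 at 6 h). With library size alone the values were -0.02 at 3 h and 0.50 at 6 h, the latter called higher (adjusted p = 0.0234). The log2 difference of 6 h against 3 h was 0.39 ± 0.14 (SE), and edgeR's test of that difference gave an adjusted p of 0.189, which does not pass 0.05.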

How the results depend on the processing

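At 3 h the count of called factors (2) was 1 with library size alone, with the replicate block, with mitochondrial counts left out and with only the libraries compared, 5 with limma-voom, 12 with no filter and 14 with DESeq2, and 0 to 6 leaving out each library. At 6 h (27) it was 9 with library size alone, 14 with mitochondrial counts left out, and 7 to 24 leaving out each library; the replicate block gave 27. For 6 h against 3 h (0) it was 3 with no filter, 3 with DESeq2, 1 with limma-voom, and 0 leaving out any library. Over all genes, the 3 h count (625) was 1373 with library size alone, 1816 with no filter, 1447 with DESeq2, 218 with only the libraries compared, and 108 to 1033 leaving out each library. At 6 h (3703) it was 1312 to 3578 leaving out each library. For 6 h against 3 h (209) it was 1063, 688, 508 and 563 with no filter, DESeq2, limma-voom and only the libraries compared, 126 with the replicate block, and 14 to 595 leaving out each library. Eif2s1 at 6 h reversed from -0.34 to 0.0201 with library size alone. A lone library in a group was assumed to vary like the others. Replicate numbers did not pair libraries (correlations of deviations 0.09, -0.02 and 0.02), so the block describes only a shared number. Eif4a2, Tpt1 and Eef1e1 at 6 h were called in 15 of 15 settings. Why counts moved was not tested, beyond the fewer libraries or genes some settings hold. Depth leaves Eef1a2, Eif4e3, Eif3j2 and Eif4e1b, with few counts, uninformative.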
